A study of Caenorhabditis elegans with 48 samples.

Results

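The comparison of late with early L1 arrest in *Peft-3::TIR1* was described here, from 8 of the 48 libraries of the series. L1 arrest is the state in which *C. elegans* larvae stop developing when they hatch without food. Strain CA1200 (*Peft-3::TIR1*) was chosen by its label, with 4 libraries at 36 h and 4 libraries at 132 h in ethanol. No measured value entered the choice. The strain carries *ieSi57*, a transgene in which the *eft-3* promoter drives the plant F-box protein TIR1 fused to mRuby in the soma, with the *unc-54* 3′UTR. Its RNA polymerase II is untagged, so it served the study as a control for the degradation of AMA-1. The other groups were the same strain at 132 h with auxin, *Pgld-1::TIR1* (CA1352, TIR1 in the germline), and *Pgld-1::TIR1; ama-1::AID* (LRB387) and *Peft-3::TIR1; ama-1::AID* (LRB389), each at the same 3 conditions with 4 replicates. In the last pair of strains the largest RNA polymerase II subunit (AMA-1) carries an auxin-inducible degron. Embryos from bleached hermaphrodites hatched and starved in S-basal, and whole larvae were collected from 1 flask per condition and replicate. Ethanol, the solvent of auxin, was added at 36 h to the flasks collected 96 h later. The flasks collected at 36 h had no such addition, and the study's methods do not say whether their S-basal held ethanol. No library at 132 h without added ethanol was analysed here. So 96 h more of arrest and 96 h with added ethanol cannot be told apart in any result below.

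Arrested L1 larvae live on what the embryo left them. The intestine holds their fat and makes the digestive enzymes, insulin-like signaling through the receptor DAF-2 and the FoxO factor DAF-16 governs the arrest, and the primordial germ cells stay quiescent. Fat is burned by β-oxidation in mitochondria and peroxisomes, and the glyoxylate cycle lets worms, unlike mammals, turn acetyl units from fat or ethanol into sugar. Ethanol is oxidized to acetaldehyde and acetate, and an acetyl-CoA synthetase makes acetyl-CoA from acetate.

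Each library at 36 h held 10042659 to 17766539 counts on genes, against 8752969 to 12312449 at 132 h with ethanol. Ribosomal RNA took 4.03% to 16.6% of them at 36 h and 3.20% to 18.4% at 132 h. ERCC spike-ins, added in proportion to total RNA, made up 2.01% to 2.87% of the counts at 36 h and 1.64% to 2.16% at 132 h (exact two-sided permutation test, p = 0.0571, 0.0762 adjusted over 4 shares). Levels below are CPM, counts per 1000000 of the upper-quartile-scaled library size, in replicates 1 to 4, and changes are log2 fold changes of 132 h over 36 h, fitted with W1, a covariate drawn from the spike-ins. W1 was −0.0199 to 0.167 at 36 h and −0.125 to −0.0685 at 132 h, so the covariate and time are partly confounded. Nothing in the labels ties libraries to separate cultures beyond their replicate number, and p-values measure the spread between these libraries. The animals were larvae by their labels. Genes of other stages were summed beside this, without a threshold for absence, so the sums do not settle the stage. The 6 genes of adult yolk proteins summed to 25.7 to 48.5 CPM at 36 h and 4.12 to 38.3 CPM at 132 h. The 21 sperm genes (7 tested) summed to 3.10 to 8.09 CPM at 36 h and 15.8 to 21.4 CPM at 132 h. The 17 early embryo genes (11 tested) summed to 258 to 354 CPM at 36 h and 255 to 289.8 CPM at 132 h.

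Late arrest differed from early arrest across much of the transcriptome. Of 15549 protein-coding genes tested, 3193 were higher and 3709 lower at 132 h at an adjusted p under 0.05 (edgeR quasi-likelihood test, Benjamini-Hochberg), which is 20.5% and 23.9% and together 44.4%. These percentages are the background for every gene group below, apart from counts by the spike-ins. The levels of the 8 libraries did not overlap between the times for 6900 genes (44.4%). On a principal component analysis of the 8 libraries, the first component held 72.45% of the variance and set the times apart. The changes were large: 2303 of the genes that rose and 2706 of those that fell changed by at least 1 on the log2 scale, and 243 and 203 by at least 5. Genes that rose had a median of 14.2 CPM at 36 h and 37.3 CPM at 132 h. Those that fell had 41.3 CPM at 36 h and 14.2 CPM at 132 h. The calls rest on the same levels, so these medians only describe the calls.

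All of these are changes relative to the rest of the mRNA. When the libraries were scaled to the spike-ins instead, the median change of all genes moved from −0.11 to 0.84, 5501 genes were higher and 944 lower, and the share of calls that were higher went from 46.3% to 85.4%. Of the 3709 genes that fell, 937 were also lower by the spike-ins and 0 were called higher (0 at an unadjusted p under 0.05 in edgeR). Of the 3193 that rose, 3187 were also higher. Spike-ins were added by total RNA, so this scale is mRNA per total RNA and not per larva. The study reports that larvae late in arrest yielded less total RNA each than larvae early in arrest. It proposes that mRNA stayed a roughly constant part of total RNA. A gene called higher by the spike-ins therefore need not be higher per larva. The spike-in share of the counts did not itself pass its test here (exact two-sided permutation test, adjusted p = 0.0762). A fit of the 8 libraries alone with W1 called 2045 genes higher and 2383 lower, and the same fit without W1 called 3328 and 3849. Below, "fell" means fell relative to other genes. Counts of a gene group by the spike-ins have another background, 5501 higher and 944 lower of 15549 genes. Their medians are to be read against the 0.84 of all genes, so a group median between 0 and 0.84 is still below that of all genes.

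**Figure D1:**
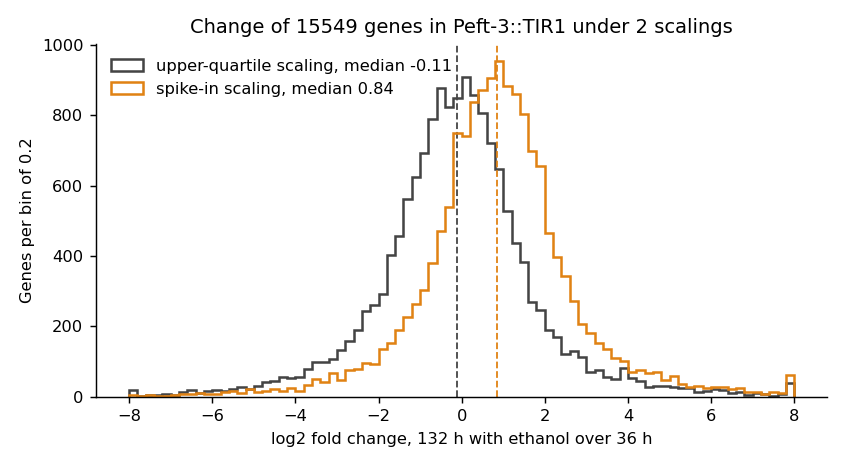
Histogram of the log2 fold change of 132 h with ethanol over 36 h for the 15549 genes tested in Peft-3::TIR1, under upper-quartile scaling with W1 (grey) and under spike-in scaling (orange), with genes beyond ±8 placed in the end bins. The dashed medians lie at −0.11 and 0.84.

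The largest rises were in genes that were near silent at 36 h. By a rule that took the 10 largest fitted changes among well-counted genes without overlap, the top of the list held *F20E11.17*, *arrd-9* (an arrestin domain protein), *clec-47* (a C-type lectin), *F18E3.11*, *pgph-1* (a phosphoglycolate phosphatase homolog), *C49G7.12*, *F18E3.13*, *pals-3*, *C01G10.5* and *Y68A4A.13*. *F20E11.17* had 0, 0, 0 and 0 CPM at 36 h and 18.3, 20.5, 17.3 and 27.7 CPM at 132 h, which is at least 249-fold higher when the 0 counts of the 36 h group are set to 3 over the group. On the same floor *arrd-9* was at least 156-fold higher, *pgph-1* at least 174-fold and *pals-3* at least 136-fold, and the other 4 genes at 0 counts (*F18E3.11*, *F18E3.13*, *C01G10.5* and *Y68A4A.13*) had such lower bounds of 101.4-fold to 167-fold. *pals-3* has exons that overlap those of *pals-4* and *pals-12*, so its reads may be theirs. *clec-47* had 1 count in the 36 h group and 1334 at 132 h, a ratio of 1124 (95% counting interval 201 to 44429). The most abundant of the 10 at 132 h was *C49G7.12*, with 0, 1.98, 0.117 and 0.131 CPM at 36 h and 397, 300.1, 283 and 267 CPM at 132 h, a change of 9.64 ± 0.76 (SE, adjusted p = 7.1e-15) that was 12.09 without replicate 2 at 36 h. Fitted changes of genes this close to 0 can move with a single library.

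The 10 largest falls included genes that were abundant at 36 h and genes that were already low. *cpr-2*, a cathepsin B-like protease, had 1242, 787, 814 and 941 CPM at 36 h and 4.92, 4.12, 8.23 and 11.396 CPM at 132 h, a change of −7.24 ± 0.72 (SE, adjusted p = 8.1e-12). *fil-1*, a fasting-induced lipase, went from 36.6, 22.9, 26.6 and 22.03 CPM to 2 counts in all 132 h libraries together, a ratio of 611 (95% counting interval 169 to 5049). *asm-3*, an acid sphingomyelinase, was at 35.9, 49.4, 29.5 and 32.4 CPM at 36 h and 0, 0, 0 and 0.651 CPM at 132 h. For *fil-1* and *asm-3* the libraries at 132 h lay near 0, and the times did not overlap for any of the 3 genes. *C32H11.4* had 1482 counts at 36 h and 2 at 132 h, and *dod-22*, a gene named for lying downstream of DAF-16, had 248 and 0, which is at least 98.1-fold lower. The list was completed by *K12H4.7* (from 321 to 2.24 CPM), *B0035.13* (from 188 to 1.74 CPM), *F35C8.5* (from 160.4 to 1.85 CPM), the F-box gene *fbxa-185* (from 12.98 to 0.0786 CPM) and the chemoreceptor gene *srh-240* (from 6.94 to 0.0271 CPM). *K12H4.7* has exons that overlap those of *K12H4.2*.

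Some of the enzymes that carry ethanol, acetate and fat into sugar rose, within a list of glyoxylate, gluconeogenesis and trehalose genes in which 6 rose and 8 fell of 18 tested (median −0.24, with 9 higher and 2 lower by the spike-ins). *adh-1* (also named *sodh-1*), an alcohol dehydrogenase, had 3.95, 6.52, 8.55 and 12.33 CPM at 36 h and 187, 145, 118 and 107 CPM at 132 h, a change of 3.86 ± 0.54 (SE, adjusted p = 7.0e-08). *acs-19*, an acetyl-CoA synthetase, had 63.3, 72.4, 94.2 and 96.8 CPM at 36 h and 745, 1058, 1091 and 944 CPM at 132 h, a change of 3.57 ± 0.18 (SE, adjusted p = 3.5e-21). *icl-1*, the isocitrate lyase and malate synthase of the glyoxylate cycle, had 15.2, 18.8, 34.1 and 22.4 CPM at 36 h and 880.2, 1371, 1424 and 989 CPM at 132 h, a change of 5.59 ± 0.35 (SE, adjusted p = 5.8e-18). In all 3 genes every library at 132 h was far above every library at 36 h. Further along the route to sugar, *mdh-2*, mitochondrial malate dehydrogenase, rose from 73.5 ± 6.23 to 229 ± 4.81 CPM, and *fbp-1*, fructose-1,6-bisphosphatase, rose from 15.1 ± 1.94 to 30.999 ± 2.51 CPM. Neither phosphoenolpyruvate carboxykinase gene was called higher. *pck-1* had means of 194 and 141 CPM with overlapping libraries (adjusted p = 0.25), and *pck-2* fell from 1247 ± 146 to 664 ± 106 CPM, a fall that is absent by the spike-ins (log2 fold change 0.0048). *tps-1*, trehalose phosphate synthase, rose by 0.63 on the log2 scale.

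Relatives of these enzymes moved the other way. *sodh-2*, the neighbouring alcohol dehydrogenase gene, had 6.36, 4.53, 16.6 and 7.87 CPM at 36 h and 0.615, 0, 0.309 and 0.109 CPM at 132 h, a change of −5.21 ± 1.03 (SE, adjusted p = 4.0e-05), and −6.12 without replicate 1 at 132 h. Its exons overlap those of *adh-1*, and reads of the pair may be split wrongly. *alh-8*, a methylmalonate-semialdehyde dehydrogenase homolog, had 14404, 15201, 14514 and 10709 CPM at 36 h and 808, 929, 676 and 819 CPM at 132 h, a change of −3.98 ± 0.20 (SE, adjusted p = 2.1e-21). *alh-8* was among the 10 transcripts with the highest CPM per kb of exon at 36 h, and it has exons that overlap those of *F13D12.8*. *alh-12*, another aldehyde dehydrogenase gene, fell from 588 ± 67.3 to 54.5 ± 11.2 CPM. *alh-1*, the homolog of mitochondrial aldehyde dehydrogenase, had overlapping libraries, with means of 173 and 184 CPM. Over the list of ethanol and aldehyde metabolism, 2 rose and 10 fell of 20 tested (median −0.39), and by the spike-ins 7 members were higher, 4 lower and the median was 0.61. The trehalases split as well. *tre-2* rose from 23.5 ± 3.06 to 212 ± 18.6 CPM, while *tre-3* and *tre-5* fell from 67.5 to 9.59 CPM and from 102 to 8.02 CPM.

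**Figure D2:**
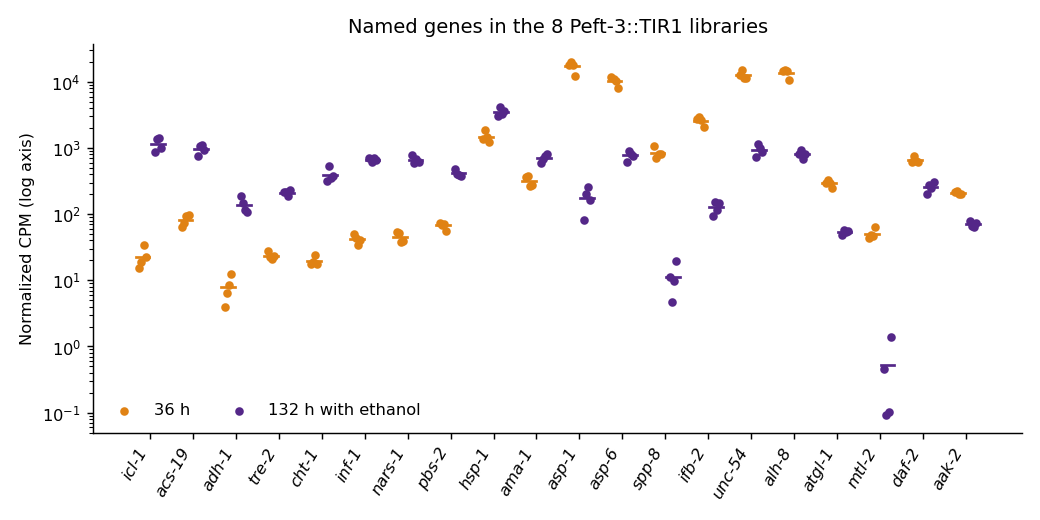
Normalized CPM (log axis) of 20 named genes in the 4 libraries at 36 h (orange) and the 4 at 132 h with ethanol (purple) of Peft-3::TIR1, with points for libraries and lines for group means. The first 10 genes rose and the last 10 fell, and in each gene the libraries of the 2 times do not overlap.

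A few enzymes of fatty acid use were switched on from near 0. *acs-2*, a mitochondrial acyl-CoA synthetase known to be induced by fasting, had 1.24, 0, 1.76 and 1.31 CPM at 36 h and 904, 982, 633 and 677 CPM at 132 h, a change of 9.18 ± 0.59 (SE, adjusted p = 1.1e-17). *hacd-1*, a hydroxyacyl-CoA dehydrogenase, had 0.0775, 2.12, 1.29 and 1.57 CPM at 36 h and 87.1, 179, 105 and 128 CPM at 132 h, a change of 6.59 ± 0.51 (SE, adjusted p = 4.2e-15), and 5.97 without replicate 1 at 36 h. *cpt-3* and *cpt-4*, of the carnitine palmitoyltransferases that carry fatty acids into mitochondria, rose from 1.498 to 21.2 CPM and from 1.39 to 9.91 CPM. The acyl-CoA dehydrogenase gene *acdh-1* rose from 0.810 to 4.14 CPM. These genes did not speak for the whole list of lipolysis and fatty acid oxidation, in which 12 rose and 9 fell of 44 tested (median −0.04, and 0.27 in the 8 libraries alone with W1). The lipases themselves were among those that fell. *atgl-1*, the adipose triglyceride lipase homolog, had 300.2, 329.9, 295 and 249 CPM at 36 h and 48.95, 57.7, 53.7 and 56.4 CPM at 132 h, a change of −2.46 ± 0.13 (SE, adjusted p = 1.7e-20). The lysosomal lipase genes *lipl-2* and *lipl-5* fell from 98.7 ± 13.4 to 1.04 ± 0.598 CPM and from 365 ± 54.2 to 7.89 ± 2.03 CPM. *hosl-1*, hormone-sensitive lipase, had means of 22.9 and 30.5 CPM and did not pass the test (adjusted p = 0.12).

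The Δ9 desaturases changed in opposite directions. *fat-5*, which acts on palmitic acid, had 0, 0.708, 0 and 1.44 CPM at 36 h and 79.6, 156, 162 and 118 CPM at 132 h, a change of 8.04 ± 0.66 (SE, adjusted p = 2.7e-14), which was 7.40 without replicate 1 and 9.32 without replicate 4 at 36 h. It has exons that overlap those of *twk-42*. *fat-6*, which acts on stearic acid, had 1039, 551, 651 and 617 CPM at 36 h and 190.2, 319.8, 219.8 and 252 CPM at 132 h, a change of −1.55 ± 0.27 (SE, adjusted p = 4.5e-06), and −0.65 by the spike-ins (adjusted p = 0.16). *elo-6*, an elongase of monomethyl branched-chain fatty acids, rose from 5.13 to 28.3 CPM. In the list of desaturation and elongation, 5 rose and 7 fell of 17 tested, and by the spike-ins 7 higher and 0 lower (0 at an unadjusted p under 0.05 in edgeR), with a median of 1.14.

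Genes for digestive enzymes had the lowest median of the 55 gene lists. The 74 genes of cathepsins, aspartyl proteases, lysozymes and saposin-like proteins summed to 34949.7 to 49118 CPM at 36 h and 1805 to 2722 CPM at 132 h. Of the 59 tested, 36 fell (61.0% against the background of 23.9%) and 6 rose, with a median of −2.40. By the spike-ins 10 members were higher, 29 lower and the median was −1.65. *asp-1*, an intestinal aspartyl protease, had 14397 CPM per kb of exon at 36 h, next below *eef-1A.1* among all genes, and 148 at 132 h. It had 18176, 20192, 18021 and 12199 CPM at 36 h and 81.4, 198, 261 and 162 CPM at 132 h, a change of −6.47 ± 0.44 (SE, adjusted p = 9.9e-17). *asp-6*, of the same family, had 11734, 10928, 10266 and 8013 CPM at 36 h and 612, 904, 808 and 758 CPM at 132 h, a change of −3.78 ± 0.28 (SE, adjusted p = 1.4e-15). The lowest library at 36 h stood more than 8-fold above the highest at 132 h for both. Others of the group were *cpr-6* (from 470.5 to 29.4 CPM), and the saposin-like genes *spp-8* (from 848 to 11.3 CPM) and *spp-18* (from 110.03 to 1.39 CPM). A minority went up from low levels, such as the lysozyme gene *lys-3* (from 6.29 ± 2.32 to 48.7 ± 7.47 CPM) and *spp-27* (from 0.797 ± 1.17 to 33.8 ± 12.2 CPM). In whole larvae, fewer cells of a type and less RNA per cell cannot be told apart.

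The intestine's structural and regulatory genes did not move as a block. *ifb-2* and *ifc-1*, intermediate filament genes of the intestinal terminal web, fell from 2600.4 ± 357 to 127 ± 26.6 CPM and from 342 ± 79.2 to 10.46 ± 4.39 CPM. *vha-6*, an intestinal V-ATPase subunit, had 1224, 1229, 959.9 and 851 CPM at 36 h and 50.3, 77.8, 55.4 and 79.7 CPM at 132 h, a change of −4.17 ± 0.28 (SE, adjusted p = 3.9e-17). *ges-1*, the gut esterase, fell from 34.5 to 6.10 CPM. Against these, *elt-2*, the GATA factor that specifies the intestine, rose from 24.4 ± 5.61 to 49.99 ± 11.7 CPM (log2 fold change 1.15 ± 0.22 (SE, adjusted p = 3.3e-05)). *act-5*, the actin of the microvilli, had 108, 105, 103 and 45.6 CPM at 36 h and 362, 451, 333 and 499 CPM at 132 h, a change of 2.1 ± 0.35 (SE, adjusted p = 2.1e-06). The chitinase gene *cht-1* rose from 19.6 ± 3.35 to 397 ± 100.4 CPM, and it has exons that overlap those of *slcf-2*. All 3 were higher in every late library. Of 11 intestinal markers, 3 rose and 8 fell. C-type lectins, many of them secreted by the gut, fell more often than they rose: 10 rose and 48 fell of 128 tested (5 or 6 rose without any 1 of replicates 1, 2 and 3 at either time), with a median of −1.77, and by the spike-ins 16 members were higher, 30 lower and the median was −0.66. *clec-65* fell from 198 ± 17.2 to 6.35 ± 2.67 CPM.

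**Figure D3:**
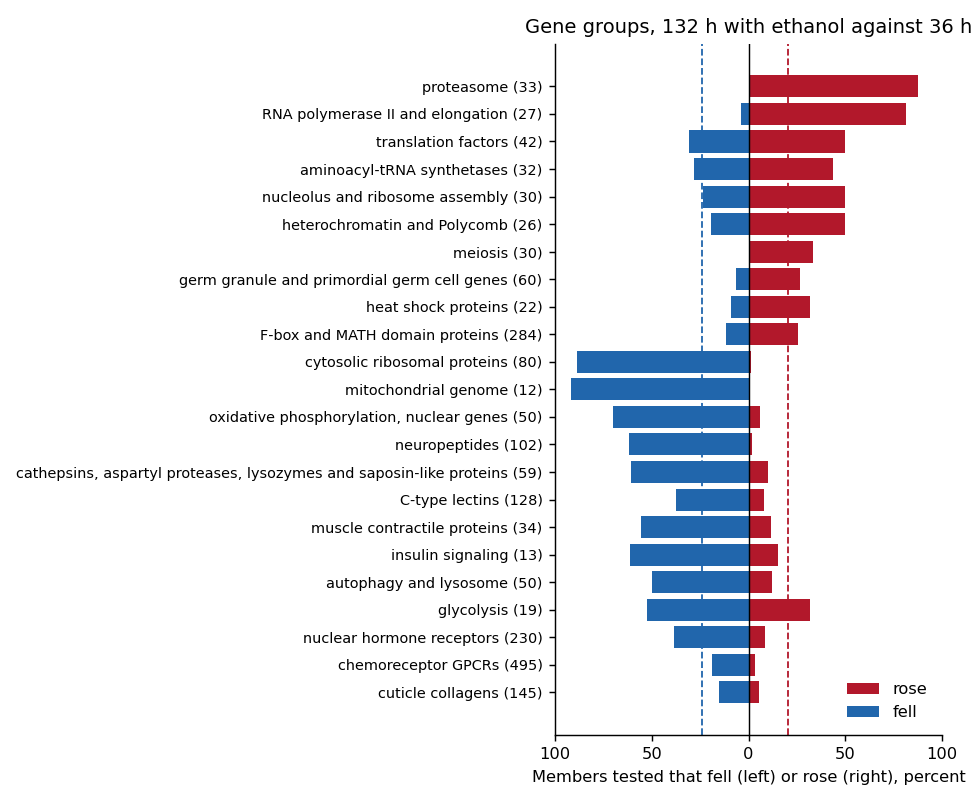
Percent of the tested members of 23 gene groups that fell (blue, to the left) or rose (red, to the right) in Peft-3::TIR1 at 132 h with ethanol against 36 h, with the number tested in brackets. Dashed lines mark the shares over all genes, 23.9% fallen and 20.5% risen. Proteasome genes stand at 87.9% risen and cytosolic ribosomal protein genes at 88.8% fallen.

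Genes of the proteasome, the protease complex that degrades ubiquitinated proteins, rose together. Of 33 subunit genes, 29 rose and 0 fell (0 at an unadjusted p under 0.05 and 0 with DESeq2), with a median of 1.05 (all genes −0.11), and their sum was 2287 to 2647 CPM at 36 h and 4439 to 4887 CPM at 132 h. *pbs-2*, a β subunit of the core particle, had 73.6, 69.6, 70.2 and 56.4 CPM at 36 h and 475, 409.8, 394 and 381 CPM at 132 h, a change of 2.73 ± 0.20 (SE, adjusted p = 1.1e-15). The α subunit gene *pas-2* rose from 53.8 ± 6.26 to 164 ± 3.37 CPM, and *rpn-12*, of the regulatory particle, rose from 20.3 ± 7.04 to 48.3 ± 6.24 CPM. Most other members rose by less, as the median shows. Autophagy and lysosome genes went the other way in number: 6 rose and 25 fell of 50 tested (median −0.38). By the spike-ins 17 members were higher, 2 lower and the median was 0.57, below the 0.84 of all genes. Named exceptions were *sqst-1*, the p62 autophagy receptor, with 848, 918, 766 and 688 CPM at 36 h and 2246, 2161, 2133 and 2279 CPM at 132 h, and *bec-1*, the Beclin homolog, which rose from 9.88 to 34.9 CPM. *lgg-1*, the LC3 and GABARAP homolog, rose by 0.52 on the log2 scale. *hlh-30*, the TFEB homolog, had means of 657 and 514 CPM (adjusted p = 0.08).

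Several genes of cytosolic chaperones rose, and those of the endoplasmic reticulum and mitochondria split. *hsp-1*, the constitutive HSP70, had 1369, 1870.3, 1475 and 1224 CPM at 36 h and 3053, 4209, 3253 and 3582 CPM at 132 h, a change of 1.33 ± 0.13 (SE, adjusted p = 3.7e-12). *hsp-90* rose from 3767 ± 652 to 7944 ± 1124 CPM, *hsp-110* from 125 ± 21 to 382 ± 41.3 CPM and the DNAJ gene *dnj-13* from 108 ± 23.5 to 271 ± 65.02 CPM. *hsf-1*, the heat shock factor, also rose, from 40.6 ± 6.75 to 90.6 ± 8.29 CPM. The small heat shock genes *hsp-17* and *hsp-12.6* moved apart: *hsp-17* from 2.0004 ± 0.808 to 73.9 ± 25.7 CPM and *hsp-12.6* from 87.4 ± 7.38 to 0.866 ± 0.575 CPM. *hsp-17* has exons that overlap those of *F52E1.14*. Over the heat shock list, 7 rose and 2 fell of 22 tested. In the endoplasmic reticulum, *xbp-1*, whose spliced mRNA drives the unfolded protein response, and *hsp-4*, a BiP homolog, rose from 632 to 1672 CPM and from 50.4 to 166 CPM. *crt-1*, calreticulin, had 6092, 6754, 6152 and 5347 CPM at 36 h and 961, 1228, 812 and 1227 CPM at 132 h, a change of −2.55 ± 0.18 (SE, adjusted p = 4.7e-16), and overlaps *smut-1*. *hsp-6*, the mitochondrial HSP70, fell from 1476 ± 237 to 447 ± 26.3 CPM, which was −0.79 by the spike-ins (adjusted p = 0.059).

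The translation machinery split by role. Ribosomal protein genes mostly fell: 71 of 80 fell and 1 rose, with a median of −0.67, a small change for each. Their share of the counts on protein-coding genes was 15.5% to 16.9% at 36 h and 12.4% to 14.4% at 132 h (two-sided exact permutation p = 0.0286, or 0.0571 adjusted over 4 shares, where 4 against 4 cannot go below 0.0286). By the spike-ins 3 were higher, 0 lower (0 at an unadjusted p under 0.05) and the median was 0.24. The fall was thus seen relative to other mRNA and not per total RNA, and levels per larva were not measured here. In the 8 libraries alone with W1, 1 ribosomal protein gene rose and 41 fell (median −0.59). *rpl-4* had 9424, 11416, 10354 and 8416 CPM at 36 h and 6346, 6894, 6143 and 6225 CPM at 132 h, a change of −0.55 ± 0.14 (SE, adjusted p = 8.5e-04), and *rps-2* fell from 5527 ± 749 to 2542 ± 271 CPM. The member that rose was *rpl-11.1*, with 70.1, 82.9, 94.8 and 97.8 CPM at 36 h and 172, 183, 164 and 155 CPM at 132 h, a change of 1.02 ± 0.18 (SE, adjusted p = 9.5e-06). Elongation factor 1A genes also parted. *eef-1A.1* fell from 29066 ± 3603 to 16611 ± 1152 CPM (log2 fold change 0.13 by the spike-ins), and *eef-1A.2* rose from 2768 ± 332 to 8465 ± 456 CPM. These 2 genes encode near-identical proteins, so their reads may be shared.

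Translation initiation factors, tRNA synthetases and nucleolar genes held large rises and clear falls. *inf-1*, the eIF4A helicase, had 49.5, 43.2, 34.1 and 41.04 CPM at 36 h and 700.2, 614, 699.8 and 656 CPM at 132 h, a change of 4.09 ± 0.21 (SE, adjusted p = 3.4e-21). *nars-1*, asparaginyl-tRNA synthetase, had 54.6, 51.3, 37.9 and 39.7 CPM at 36 h and 786, 597, 670.3 and 608 CPM at 132 h, a change of 3.94 ± 0.20 (SE, adjusted p = 7.8e-21). *iars-1*, isoleucyl-tRNA synthetase, had 467, 566, 466 and 395 CPM at 36 h and 3412, 2709, 3761 and 3631 CPM at 132 h, a change of 2.95 ± 0.15 (SE, adjusted p = 8.3e-21). In each gene all late libraries lay above all early ones. *eif-3.C* rose from 84.8 ± 7.82 to 417 ± 18.3 CPM. In the nucleolus, *lpd-6*, a homolog of the ribosome assembly factor PPAN, rose from 104.4 ± 8.56 to 934 ± 126 CPM, *fib-1*, fibrillarin, from 154 ± 20.2 to 682 ± 24.13 CPM, and *ruvb-2*, an AAA+ ATPase of snoRNP assembly, from 22.1 ± 1.87 to 153 ± 13.4 CPM. Other members of the same lists fell. *cars-1*, cysteinyl-tRNA synthetase, had 666, 706, 604 and 489.6 CPM at 36 h and 149, 145, 129.2 and 147 CPM at 132 h, a change of −2.12 ± 0.13 (SE, adjusted p = 3.9e-18), and *ears-1*, glutamyl-tRNA synthetase, fell from 697 ± 127 to 252 ± 24.27 CPM. Of the tRNA synthetases, 14 rose and 9 fell of 32 tested, of the translation factors 21 rose and 13 fell of 42 tested, and of the nucleolar genes 15 rose and 7 fell of 30 tested.

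Genes of the transcription machinery mostly rose. For RNA polymerase II and elongation factors, 22 rose and 1 fell of 27 tested, with a median of 1.00. In the 8 libraries alone with W1, 14 rose and 1 fell (median 0.95). *ama-1*, untagged in this strain, had 362, 372, 269 and 275 CPM at 36 h and 587, 680.4, 760.2 and 803 CPM at 132 h, a change of 1.29 ± 0.23 (SE, adjusted p = 6.6e-06). *rpb-5*, a subunit shared by the RNA polymerases, rose from 32.2 ± 7.122 to 178 ± 18.6 CPM, and *ttb-1*, TFIIB, rose from 18.6 ± 3.63 to 68.3 ± 5.80 CPM. *cdk-7*, the kinase of TFIIH, rose from 5.53 to 21.3 CPM, while *cdk-9*, the kinase of P-TEFb, had means of 14.6 and 18.2 CPM and did not pass the test (adjusted p = 0.17). Chromatin genes followed in part. In the list of heterochromatin and Polycomb factors, 13 rose and 5 fell of 26 tested, among them *let-418*, the Mi-2 remodeler (from 184.6 ± 28.6 to 444 ± 58.8 CPM), and *hpl-2*, an HP1 homolog (from 11.5 to 22.02 CPM). The H3.3 histone genes parted, with *his-72* up from 297 ± 27.004 to 729.5 ± 34.95 CPM and *his-71* down from 386 ± 19.5 to 139.8 ± 21.3 CPM. Among genes of mRNA decay, 17 rose and 13 fell of 41 tested. *edc-3*, an enhancer of decapping, rose from 35.8 ± 4.14 to 127 ± 8.35 CPM, *xrn-1*, the 5′ to 3′ exonuclease, rose from 182 to 284 CPM, and *exos-7*, a subunit of the exosome, fell from 187 ± 19.3 to 45.3 ± 5.11 CPM.

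**Figure D4:**
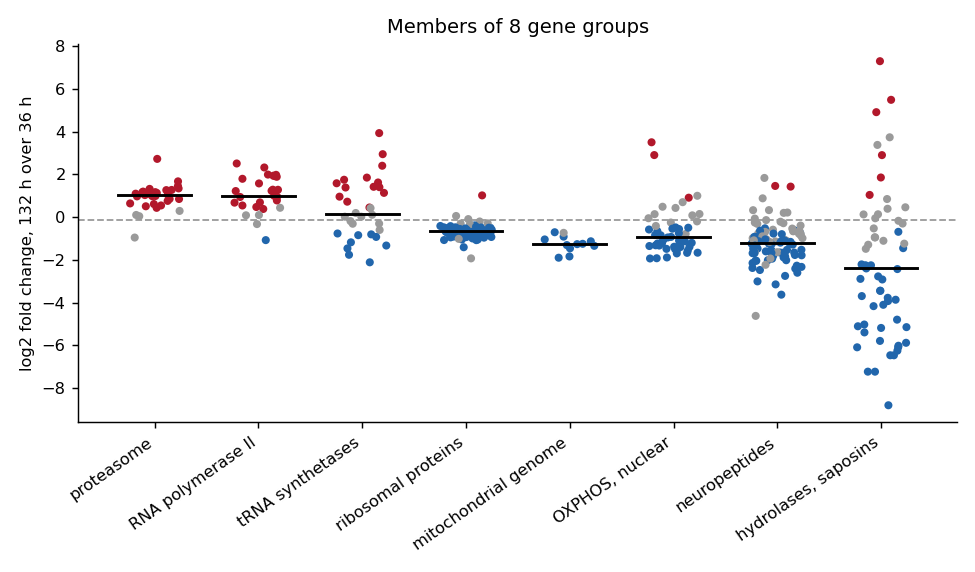
Log2 fold change of 132 h with ethanol over 36 h for each tested member of 8 gene groups in Peft-3::TIR1, red where it rose, blue where it fell and grey where it did not pass the test, with black lines for group medians and a dashed line for all genes (−0.11). The medians run from 1.05 for the proteasome to −2.40 for the proteases, lysozymes and saposin-like proteins.

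Genes of mitochondrial energy metabolism fell on both genomes. Of the 12 protein genes of the mitochondrial genome, 11 fell and 0 rose (0 at an unadjusted p under 0.05 and 0 with DESeq2), with a median of −1.26. Their share of counts on protein-coding genes was 1.35% to 1.66% at 36 h and 0.772% to 0.904% at 132 h, without overlap (exact two-sided permutation p = 0.0286, 0.0571 adjusted over 4 shares). *COX1*, a subunit of cytochrome c oxidase, had 4435, 5057, 4821 and 5289 CPM at 36 h and 2197, 2023, 2278 and 1982 CPM at 132 h, a change of −1.25 ± 0.15 (SE, adjusted p = 1.6e-09). *ND4*, of complex I, fell from 783 ± 27.5 to 222 ± 14.7 CPM, and *ND4L* (from 10.6 to 5.59 CPM) was the member that did not pass the test. For nuclear genes of oxidative phosphorylation, 3 rose and 35 fell of 50 tested, with a median of −0.94. *nuo-1* and *nuo-5*, of complex I, fell from 493 ± 41.2 to 143 ± 8.36 CPM and from 498 ± 40.3 to 129.6 ± 13.97 CPM, and *ant-1.1*, the adenine nucleotide translocator, fell from 11912 ± 1558 to 4817 ± 505 CPM. A complex I gene that rose was *nduf-2.2*, with 10.9, 2.69, 5.62 and 8.26 CPM at 36 h and 58.4, 55.7, 49.6 and 54.8 CPM at 132 h, a change of 2.91 ± 0.27 (SE, adjusted p = 8.9e-13). By the spike-ins 1 gene of the mitochondrial genome was lower (median −0.25). Of the nuclear genes 3 were lower and 9 higher (median 0.06). Most of these falls were thus not called per total RNA, and levels per larva were not measured here. In glycolysis 6 rose and 10 fell of 19 tested, and by the spike-ins 7 higher and 2 lower (median 0.54). *aldo-2*, an aldolase, fell from 3018 ± 464 to 549 ± 100.9 CPM, *gpd-3*, a glyceraldehyde-3-phosphate dehydrogenase, fell from 1102 ± 168 to 439.7 ± 62.6 CPM, and *ldh-1*, lactate dehydrogenase, rose from 28.9 ± 4.81 to 93.1 ± 4.29 CPM.

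Contractile protein genes of muscle fell more often than they rose. Of contractile protein genes, 4 rose and 19 fell of 34 tested, and their sum was 25295 to 27468 CPM at 36 h and 8100.1 to 9038 CPM at 132 h. *unc-54*, the major myosin heavy chain of body wall muscle, had 12858, 15269, 11445 and 11513 CPM at 36 h and 725, 1161, 992 and 875 CPM at 132 h, a change of −3.69 ± 0.28 (SE, adjusted p = 3.6e-15). The transgene of this strain ends in the *unc-54* 3′UTR, and its reads there may be counted to *unc-54*. In *Pgld-1::TIR1*, whose transgene is another, the change was −3.15. The myosin light chain *mlc-2* and the heavy chain *myo-3* fell from 1489 ± 165 to 177 ± 45.6 CPM and from 888 ± 116 to 359 ± 125 CPM. *act-2*, a cytoplasmic actin, and *unc-60*, ADF/cofilin, rose from 95.02 ± 14.8 to 375 ± 51.1 CPM and from 25.41 ± 4.54 to 124 ± 12.1 CPM. By the spike-ins 10 contractile genes were higher and 4 lower. Collagens of the cuticle were mostly not called: 8 rose and 22 fell of 145 tested. By the spike-ins they were 23 higher and 10 lower (median 0.74). *col-39* fell from 1081 ± 148 to 57.9 ± 24.6 CPM.

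Among the genes by which neurons signal, neuropeptide genes fell in large number: 2 rose and 63 fell of 102 tested (median −1.2), and by the spike-ins 3 members were higher, 18 lower and the median was −0.17. In the 8 libraries alone with W1, 1 neuropeptide gene rose and 41 fell (median −0.92). *nlp-47* had 75.3, 84.3, 71.7 and 97.7 CPM at 36 h and 14.1, 13.8, 11.11 and 18.8 CPM at 132 h, a change of −2.75 ± 0.25 (SE, adjusted p = 8.6e-13), and *nlp-28* fell from 44.8 to 4.74 CPM. The enzymes that process the peptides fell with them. *egl-3*, the proprotein convertase, had 2382, 3005, 2356 and 2399.5 CPM at 36 h and 926, 1034, 951 and 1103 CPM at 132 h, a change of −1.35 ± 0.19 (SE, adjusted p = 5.1e-08), and *egl-21*, the carboxypeptidase E homolog, fell from 1958 ± 181 to 777 ± 64.3 CPM. By the spike-ins both stood at −0.38 and were not called. Not all neuronal genes fell. *snb-1*, synaptobrevin, rose from 439.7 ± 48.4 to 572 ± 40.3 CPM, and *rab-3*, a synaptic vesicle GTPase, had overlapping libraries (adjusted p = 0.36). In the synaptic list 2 rose and 16 fell of 32 tested, and by the spike-ins 7 higher and 0 lower (0 at an unadjusted p under 0.05 in edgeR), with a median of 0.34. Of chemoreceptor genes, 16 rose and 93 fell of 495 tested (10 rose without replicate 1 at 36 h). That is 3.23% risen and 18.8% fallen, both below the 20.5% and 23.9% of all genes. Of nuclear hormone receptor genes 20 rose and 89 fell of 230 tested (8.70% and 38.7%). In the 8 libraries alone with W1, 9 rose and 53 fell of the chemoreceptors, and 11 rose and 51 fell of the nuclear hormone receptors. By the spike-ins the chemoreceptors were 32 higher and 40 lower (median −0.11) and the nuclear hormone receptors 45 higher and 24 lower (median 0.31). *nhr-18* fell from 227 ± 18.4 to 23.5 ± 5.21 CPM and *nhr-58* rose from 4.69 ± 1.05 to 71.98 ± 6.44 CPM.

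Transcripts of the insulin pathway were more often lower than higher late in arrest. *daf-2*, the insulin receptor, had 608, 763, 633 and 613 CPM at 36 h and 199.96, 275, 244 and 304 CPM at 132 h, a change of −1.34 ± 0.19 (SE, adjusted p = 7.2e-08). *daf-16*, its FoxO target, had 438, 537, 362 and 332 CPM at 36 h and 178, 228, 187 and 217 CPM at 132 h, a change of −1.09 ± 0.15 (SE, adjusted p = 4.2e-08). By the spike-ins these were −0.40 and −0.09 and not called. The receptor substrate *ist-1* fell from 156 ± 8.81 to 44.5 ± 11.01 CPM and *akt-1* fell from 190.0 ± 19.8 to 104.5 ± 7.51 CPM. *age-1*, the PI3 kinase, had overlapping libraries and a change of −0.10 ± 0.20 (SE, adjusted p = 0.73). Of 13 genes of the pathway 8 fell and 2 rose (median −0.85), and by the spike-ins 4 members were higher, 1 lower and the median was 0.09. Of the insulin-like peptides, 2 rose and 12 fell of 31 tested. By the spike-ins they were 5 higher and 3 lower (median 0.27), and in the 8 libraries alone with W1 0 rose (2 at an unadjusted p under 0.05 in edgeR) and 6 fell. *ins-17* fell from 212 ± 13.1 to 48.3 ± 6.47 CPM and *ins-26* from 6.67 to 0.608 CPM, while *daf-28* had overlapping libraries (means of 17.3 and 13.7 CPM). *sod-3*, a superoxide dismutase, fell from 3.17 to 0.440 CPM, *mtl-1*, a metallothionein, fell from 67.4 ± 13.6 to 15.1 ± 3.77 CPM, and *dct-1*, a BNIP3 homolog, fell from 454 ± 48.6 to 116 ± 13.8 CPM.

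In the AMPK and TOR list, 4 rose and 12 fell of 25 tested, and by the spike-ins 10 members were higher, 2 lower and the median was 0.71. *aak-2*, a catalytic subunit of AMPK, had 213, 228, 201 and 199 CPM at 36 h and 79.8, 66.2, 63.6 and 74.8 CPM at 132 h, a change of −1.62 ± 0.14 (SE, adjusted p = 1.2e-13), and −0.61 by the spike-ins (not called). The γ subunit gene *aakg-4* fell from 80.2 ± 8.102 to 18.7 ± 2.96 CPM, and *par-4*, the LKB1 kinase that activates AMPK, rose from 24.4 ± 3.33 to 65.9 ± 9.38 CPM. *daf-15*, Raptor, fell from 389.8 ± 35.4 to 152 ± 17.8 CPM, and stood at −0.42 by the spike-ins (not called). In the dauer and TGF-β pathway, 1 rose and 9 fell of 20 tested, and by the spike-ins 5 higher and 2 lower (median 0.70). *daf-7*, its ligand, fell from 173 to 106 CPM (adjusted p = 0.017) and stood at 0.24 by the spike-ins. Its call was lost with DESeq2 (adjusted p = 0.14), without W1, in the 8 libraries alone with W1 and without replicate 3 at 132 h (adjusted p = 0.051, against a range of 0.011 to 0.051 over the libraries left out). The heterochronic genes *lin-14* and *lin-28*, which set early larval fates, fell from 501 ± 68.01 to 279 ± 28.8 CPM and from 298 ± 42.03 to 157 ± 5.43 CPM, and by the spike-ins were at 0.10 and 0.03.

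Germline genes were called higher more often than lower, but most were not called. Of the genes of germ granules and primordial germ cells 16 rose, 4 fell and 40 were not called of 60 tested (median 0.54). That is 26.7% risen and 6.67% fallen, against 20.5% and 23.9% of all genes. Of meiosis genes 10 rose (33.3%), 0 fell and 20 were not called of 30 tested (median 0.80, 0 fell at an unadjusted p under 0.05 and 0 with DESeq2). In the 8 libraries alone with W1, 11 rose and 7 fell of the first list, whose median was then −0.11. *glh-1*, a Vasa helicase of germ granules, had 29.3, 8.07, 18.8 and 36.5 CPM at 36 h and 88.7, 119.9, 114 and 108 CPM at 132 h, a change of 2.02 ± 0.36 (SE, adjusted p = 9.4e-06). *mrg-1*, a chromodomain protein needed by primordial germ cells, had 28.5, 21.5, 18.05 and 27.3 CPM at 36 h and 165, 158, 193 and 193 CPM at 132 h, a change of 3.07 ± 0.24 (SE, adjusted p = 3.7e-15). *gld-1* and *oma-1*, RNA-binding regulators of germ cells and oocytes, rose from 7.24 ± 4.31 to 32.3 ± 5.12 CPM and from 4.73 ± 4.79 to 57.1 ± 15.7 CPM. *zim-1*, which pairs chromosomes in meiosis, rose from 2.11 ± 1.33 to 38.5 ± 3.82 CPM and has exons that overlap those of *zim-2*. Other germline genes did not pass the test, with changes given in brackets: *pgl-1*, a germ granule protein (0.05 ± 0.39 (SE, adjusted p = 0.93)), and *nos-2*, a nanos homolog (−0.26 ± 1.05 (SE, adjusted p = 0.87)). With a library left out, *nos-2* ran from −1.33 to 1.38. In cell cycle and replication, 16 rose and 4 fell of 51 tested (median 0.41), while in the 8 libraries alone with W1 5 rose and 3 fell (median −0.32). *cdc-6*, a licensing factor, and *cki-1*, the p27 inhibitor that holds cells in G1, rose from 20.6 ± 5.36 to 72.6 ± 10.2 CPM and from 77.5 ± 15.5 to 147 ± 5.82 CPM, and *cdk-1* had overlapping libraries (adjusted p = 0.45).

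Fast-evolving and detoxification families changed in both directions. For F-box and MATH domain genes, 73 rose and 33 fell of 284 tested, with a median of 0.57. In the 8 libraries alone with W1, 40 rose and 27 fell (median 0.91). *fbxc-58* had 0, 0.708, 1.41 and 0.393 CPM at 36 h and 68.4, 79.4, 88.9 and 68.3 CPM at 132 h, a change of 7.24 ± 0.56 (SE, adjusted p = 5.5e-15), and 8.17 without replicate 3 at 36 h. Another, *fbxa-30*, went from 1 count to 479, a ratio of 404 (95% counting interval 72.1 to 15974). For cytochrome P450, UGT and GST genes, 24 rose and 50 fell of 173 tested, and by the spike-ins 45 members were higher, 22 lower and the median was 0.69. The UDP-glucuronosyltransferase genes *ugt-28* and *ugt-29* rose from 0.480 ± 0.572 to 22.5 ± 8.91 CPM and from 2.28 ± 1.096 to 85.2 ± 12.52 CPM. *gst-20*, a glutathione S-transferase gene, had 429, 575, 546 and 553 CPM at 36 h and 7.22, 17.2, 14.6 and 10.9 CPM at 132 h, a change of −5.32 ± 0.32 (SE, adjusted p = 1.0e-18), and *cyp-37B1*, a cytochrome P450 gene, fell from 106 ± 8.34 to 2.04 ± 1.23 CPM.

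The same contrast was made in the other 3 strains. It called 5949 genes in *Pgld-1::TIR1* (38.3%), 5312 in LRB387 (34.2%) and 4697 in LRB389 (30.2%), the strains with tagged AMA-1. Of the genes that rose here, 2376, 2176 and 1939 also rose in those strains, which is 74.4%, 68.1% and 60.7% of the 3193 and 81.2%, 82.1% and 82.3% of theirs. Of the genes that fell here, 2629, 2380 and 2098 also fell, 70.9%, 64.2% and 56.6% of the 3709 and 87%, 89.4% and 89.6% of theirs. Across the 15549 genes the fold changes correlated with Pearson's r of 0.71, 0.72 and 0.70, as a description, since genes are not independent replicates. Of the 161 genes named here that were called, 150, 145 and 142 were called in the same direction in those strains. *icl-1* changed by 5.72 in *Pgld-1::TIR1*, 5.31 in LRB387 and 5.13 in LRB389. *asp-1* changed by −6.05 in *Pgld-1::TIR1*, −6.35 in LRB387 and −6.11 in LRB389, and *acs-2* by 10.16 in *Pgld-1::TIR1*, 9.05 in LRB387 and 10.26 in LRB389. In the 132 h libraries of *Peft-3::TIR1* with auxin, which also held ethanol, *icl-1* had a mean of 1269 CPM, *acs-2* 733, *asp-1* 149 and *nars-1* 509.

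The difference itself was tested as the change in *Peft-3::TIR1* less the mean change of the other strains. It passed for 556 genes (3.58%), 330 higher (2.12%) and 226 lower (1.45%) here. The count rests on the scaling and on single libraries: it was 4 by the spike-ins, 305, 338 and 352 without replicates 1, 3 or 4 at 132 h, and 350 without replicate 3 at 36 h. Against *Pgld-1::TIR1* alone it was 9 genes (0.0579%). Among the 3193 and 3709 genes called here, 543 that rose and 796 that fell were called in no other strain, of which 29 and 41 differed in the test of the difference. The single genes with the largest excess were F-box and unnamed genes that were near 0 at 36 h. *fbxc-55* had 0, 0.142, 0 and 0 CPM at 36 h and 26.5, 7.70, 5.76 and 7.16 CPM at 132 h, and its change exceeded that of the other strains by 5.07 ± 1.47 (SE, adjusted p = 0.041), with replicate 1 at 132 h far above the rest. Without that library the difference was 4.28 (adjusted p = 0.13), and the call was also lost without replicate 1, 3 or 4 at 36 h. *fbxa-221*, *T16G12.3* and *F59B10.3* exceeded them by 4.35, 4.16 and 3.57, and the first pair lost the call when replicate 1, 2 or 3 at 36 h was left out (adjusted p up to 0.064 and 0.067). Without replicate 4 at 36 h these differences were 6.93 and 7.49. The most abundant was *C49G7.12*, which changed by 6.55 in *Pgld-1::TIR1*, 6.51 in LRB387 and 5.50 in LRB389, a difference of 3.46 ± 0.85 (SE, adjusted p = 0.014). It was 2.92 without replicate 1 at 36 h (adjusted p = 0.057, the highest over the libraries left out) and 5.94 without replicate 2 at 36 h.

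The 5 largest deficits were in the chemoreceptor gene *str-264*, *R01E6.7*, *aakg-3*, *mtl-2* and *ugt-4*. None of these differences kept an adjusted p under 0.05 with each of the 8 libraries left out in turn. *mtl-2*, a metallothionein, had 44.2, 48.2, 47.2 and 62.9 CPM at 36 h and 0.461, 0.0916, 0.103 and 1.41 CPM at 132 h, a change of −6.47 ± 0.58 (SE, adjusted p = 4.2e-13), and −7.51 without replicate 4 at 132 h. In the other strains the change was −5.10 in *Pgld-1::TIR1*, −4.60 in LRB387 and −3.46 in LRB389, a difference of −2.09 ± 0.59 (SE, adjusted p = 0.037). The difference missed the threshold without any 1 of replicates 1, 2 and 3 at 132 h or 2, 3 and 4 at 36 h (adjusted p up to 0.12), and was −3.14 without replicate 4 at 132 h. *aakg-3*, an AMPK γ subunit gene, fell from 5.64 ± 3.05 to 0.710 ± 0.377 CPM, with a difference of −2.31 ± 0.60 (SE, adjusted p = 0.02), and adjusted p of 0.060 without replicate 2 at 132 h and 0.081 without replicate 3 at 36 h. *str-264*, *R01E6.7* and *ugt-4* fell from 10.13 to 0.609 CPM, from 5.38 to 0.771 CPM and from 5.403 to 1.17 CPM. Their differences were −2.74, −2.37 and −2.09, in genes of low counts at both times. Gene lists with 5 or more genes that differed, and a share above the 3.58% of all genes, were neuropeptides (12 of 102, all lower here), tRNA synthetases (8 of 32, all higher here), autophagy and lysosome (7 of 50, 3 higher and 4 lower here), translation factors (6 of 42, all higher here), the nucleolus (5 of 30, all higher here) and contractile proteins (5 of 34, 2 higher and 3 lower here). F-box and MATH domain genes (8 of 284, 7 higher and 1 lower here) and chemoreceptors (5 of 495, all lower here) reached 5 as large lists. Their shares lay below the 3.58% of all genes. The median change had the same sign in every strain for the nucleolus, translation factors and neuropeptides, but not for tRNA synthetases. For neuropeptides the medians were −1.2 here and −0.66, −0.75 and −0.58 in the other strains in the order above.

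**Figure D5:**
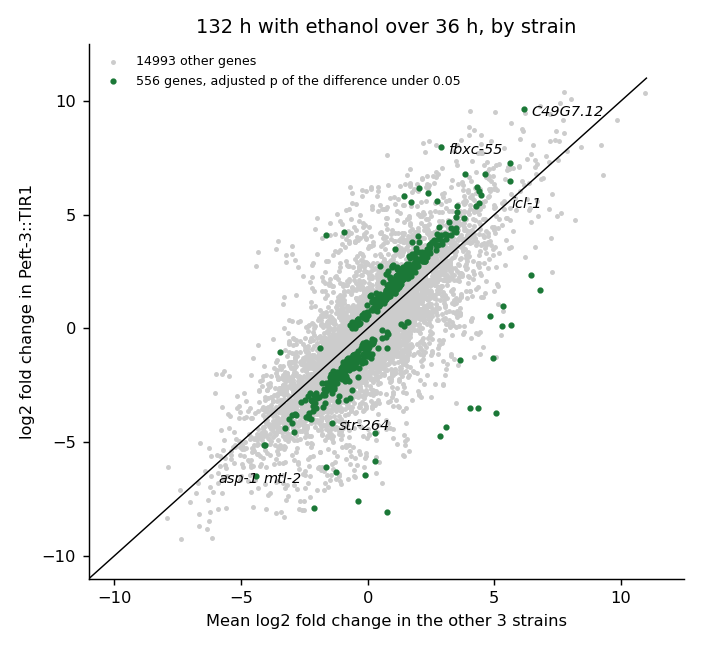
Log2 fold change of 132 h with ethanol over 36 h in Peft-3::TIR1 (y axis) against the mean of the other 3 strains (x axis) for 15549 genes, with the 556 genes whose difference passed the test in green and a line of equality. Of the green points, 523 of 556 lie farther from 0 on the y axis than on the x axis, and C49G7.12, fbxc-55 and mtl-2 stand off the line while icl-1 and asp-1 lie near it.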

How the data were processed

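Per the labels and the study's methods, poly-A RNA of 48 libraries was sequenced as 50 bp read pairs (NEBNext Ultra II), aligned with bowtie 1.2.2 to WS273 with ERCC sequences appended, and counted with HTSeq 0.11.2. The values the authors deposited are raw counts per gene. The strand setting of the counting is not given in the sources used here, and reads of overlapping genes may be misassigned. Exons of 36 of the 173 genes named overlap those of another gene: beside those noted in the report, *pck-2*, *hsp-90*, *eef-1A.1*, *iars-1*, *cars-1*, *ruvb-2*, *exos-7*, *xrn-1*, *ND4L*, *nuo-1*, *nuo-5*, *aldo-2*, *mlc-2*, *unc-60*, *rab-3*, *age-1*, *akt-1*, *dct-1*, *aak-2*, *aakg-4*, *daf-15*, *sod-3*, *nos-2*, *lin-28*, *cyp-37B1* and *T16G12.3*. Of 46911 identifiers, 46857 matched the annotation.

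A gene entered the tests if it was protein coding and exceeded 10 counts in 4 or more libraries (15549 genes). As in the study, upper-quartile scaling was used with W1, the factor of RUVg (k = 1) over 62 spike-ins. The fit was by edgeR 4.0.16 (R 4.3.3, limma 3.58.1) over 48 libraries in 12 groups, with the quasi-likelihood test, and with the likelihood ratio test of the study and DESeq2 1.42.0 among the alternatives. On simulated data with 100 genes changed by 1 and 100 by 2 on the log2 scale, the main fit recovered 55% and 84% of them. It made 7 false calls among 15549 genes. Far fewer genes were changed in the simulation than were called here, so this was no test of the scaling. Principal components used log2(CPM + 1). Counting intervals and floors (3 counts) cover counting error only.

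Genes were named by a rule: the 10 largest rises and 10 largest falls without overlap; in each of 55 lists up to 4 risen and 4 fallen members and the members marked as core; the 5 largest differences from the other strains each way; and the 10 genes highest per kb in each group. Apart from core members and the highest genes, a mean of 50 counts in 1 group was required. Not every gene that the rule allows is named, and 1 core member is not reported here. The members and lists were chosen with earlier results of these data known.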

Additional observations from a re-analysis of the deposited data

Results flagged for a closer look

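In 316 groups of 4 libraries (named genes with at least 50 counts, and the 4 library shares), 18 had a highest or lowest library whose gap to the next, as a share of the range of its group, was above the critical value of Dixon. Chance gives about 1 group in 20. Replicate 2 at 36 h stood apart in *hsp-90* at 4742 CPM (others 3383 to 3514), *egl-3* at 3005 CPM (others 2356 to 2399.5) and *daf-2* at 763 CPM (others 608 to 633). Replicate 3 at 36 h stood apart in *str-264* at 13.7 CPM (others 8.45 to 9.31). Replicate 4 at 36 h stood apart in *pck-2* at 1029 CPM (others 1301 to 1332), *act-5* at 45.6 CPM (others 103 to 108), *nuo-1* at 432 CPM (others 509 to 519) and *gpd-3* at 851 CPM (others 1173 to 1209). Replicate 1 at 132 h stood apart in *nuo-5* at 109 CPM (others 135 to 138), *fbxc-55* at 26.5 CPM (others 5.76 to 7.70) and *F59B10.3* at 20.4 CPM (others 8.02 to 8.90). Replicate 2 at 132 h stood apart in *alh-1* at 219 CPM (others 169.9 to 177), *gpd-3* at 532 CPM (others 402 to 423), *nlp-28* at 10.08 CPM (others 2.77 to 3.15) and *dct-1* at 137 CPM (others 109 to 110.1). Replicate 3 at 132 h stood apart in *age-1* at 38.2 CPM (others 49.7 to 50.6). Replicate 4 at 132 h stood apart in *ist-1* at 61.0 CPM (others 37.96 to 39.9). Ribosomal RNA took 18.4% of the counts on genes of replicate 3 at 132 h, against 3.20% to 5.26% in the others of that group.

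The change from 36 h to 132 h differed from the mean of the other strains for 556 genes, and 35 of the genes named in the report were among them. The difference of the log2 fold changes was above 0 for *fbxc-55* (5.07), *fbxa-221* (4.35), *T16G12.3* (4.16), *F59B10.3* (3.57), *C49G7.12* (3.46), *mrg-1* (0.94), *rpb-5* (0.87), *unc-60* (0.86), *nars-1* (0.85), *lpd-6* (0.82), *act-2* (0.80), *inf-1* (0.79), *pbs-2* (0.78), *sqst-1* (0.76), *edc-3* (0.75), *tre-2* (0.71), *iars-1* (0.70) and *eif-3.C* (0.59). It was below 0 for *str-264* (−2.74), *R01E6.7* (−2.37), *aakg-3* (−2.31), *mtl-2* (−2.09), *ugt-4* (−2.09), *mtl-1* (−1.43), *vha-6* (−1.2), *mlc-2* (−1.19), *nlp-47* (−1.09), *crt-1* (−1.01), *asp-6* (−0.92), *alh-8* (−0.90), *egl-3* (−0.83), *ins-17* (−0.80), *egl-21* (−0.76), *ND4* (−0.72) and *dct-1* (−0.56). The adjusted p stayed under 0.05 with each of the 8 libraries left out in turn for 11 of the 35, namely *alh-8*, *vha-6*, *sqst-1*, *crt-1*, *nars-1*, *iars-1*, *rpb-5*, *nlp-47*, *egl-3*, *egl-21* and *F59B10.3*.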

How the results depend on the processing

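With each of the 8 libraries left out in turn, 2965 to 3152 genes were higher and 3423 to 3555 lower at 132 h. Scaling to spike-ins (5501 and 944) and the 8 libraries alone with W1 (2045 and 2383) moved these counts by over 1.5 times, while TMM (3366 and 3534), no W1 (3334 and 3730), the likelihood ratio test (3358 and 3895), DESeq2 (3732 and 3612), no filter, a stricter filter, all biotypes, the 8 libraries without W1 and a threshold of 0.01 (2505 and 2868) did not. By the spike-ins 7 named genes changed sign, all to values that were not called: *pck-2* 0.0048, *eef-1A.1* 0.1269, *rpl-4* 0.3088, *akt-1* 0.084, *daf-7* 0.2369, *lin-14* 0.1007 and *lin-28* 0.0266. Another 19 named genes were no longer called there, and 9 in the 8 libraries alone with W1. Counts of other gene lists shrank in that fit too. There, 16 autophagy and lysosome genes, 33 of cytochrome P450, UGT and GST, and 8 of mRNA decay fell. In glycolysis 6 fell, in ethanol and aldehyde metabolism 5 fell, and 5 C-type lectins rose.

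The difference from the other strains was called for 929 genes with DESeq2, 4 with spike-in scaling, 160 at a threshold of 0.01 and 305 to 493 with a library left out. The difference from *Pgld-1::TIR1* was called for 126 genes with DESeq2, 14 with TMM, 39 with the likelihood ratio test, 81 with the compared libraries alone with W1 and 3 without it, 2 without W1, 1 with the replicate block within strain, 1 at a threshold of 0.01, 1 to 11 with a library left out and 0 with spike-in scaling (1133 at an unadjusted p under 0.05 in edgeR). The causes were not tested. The library shares stayed above an adjusted p of 0.05 throughout. With a library left out this was fixed in advance, since the exact p of 3 against 4 cannot go below 0.0571. Only the sizes are informative there. With a library left out the difference was −0.8215 to −0.5374 percentage points for spike-ins, −0.6554 to −0.5521 for the mitochondrial genome, −6.893 to −1.685 for ribosomal RNA and −2.608 to −1.947 for ribosomal proteins.

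By the study's methods the flasks of a strain came from plates bleached together, so libraries of the same replicate may be paired. The 4 same-numbered correlations of deviations were 0.0638 to 0.0845, and the different-numbered ones ran from −0.137 to 0.104. Not every library correlated best with its own number, so these values do not settle the pairing. With the replicate block shared by all strains, 3178 genes were higher, 3706 lower, and 696 and 10 differed from the other strains and from *Pgld-1::TIR1*. With the block within strain these were 3034, 3540, 540 and 1. The paired sign-flip test of the shares gave adjusted p of 0.167 to 0.5. With 4 pairs its p cannot go below 0.125, so it could not pass. Medians of the gene lists printed moved by at most 0.0221 when genes at 0 in a group were set to their bound. Depth limits genes near 0 counts, whose fold changes rest on few reads.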

Other observations

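Other gene lists gave the following counts, read against 20.5% risen and 23.9% fallen over all genes. Of histone genes 9 rose and 4 fell of 46, of homeobox genes 6 rose and 8 fell of 80 and of hedgehog-related ligands 6 rose and 1 fell of 36. For molting and apical matrix proteins 4 rose and 4 fell of 26, for chitin, peritrophin and gut lumen proteins 7 rose and 13 fell of 37, and for antimicrobial peptides 4 rose and 3 fell of 21. In oxidative stress and metal defense 1 rose and 12 fell of 30, in the unfolded protein responses 9 rose and 9 fell of 22 and among heterochronic genes 2 rose and 6 fell of 11. By the spike-ins the lists with more falls than rises were 8 higher and 4 lower (median 0.51) for oxidative stress and metal defense, 10 higher and 8 lower (median −0.14) for the gut lumen proteins, 23 higher and 1 lower (median 1.03) for homeobox genes and 2 higher and 0 lower (0 at an unadjusted p under 0.05 in edgeR), with a median of 0.30 for heterochronic genes.

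Of the muscle markers 2 rose and 6 fell of 10, of the neuronal markers 1 rose and 4 fell of 11, of the glial markers 1 rose and 3 fell of 7 and of the coelomocyte and excretory cell markers 1 rose and 2 fell of 9. By the spike-ins the muscle markers were 2 higher and 2 lower (median −0.25) and the neuronal markers 5 higher and 0 lower (0 at an unadjusted p under 0.05 in edgeR), with a median of 0.76. Hypodermal markers had 2 fallen of 11 and none risen (0 at an unadjusted p under 0.05 in edgeR and 0 with DESeq2). Germ cell markers had 3 risen and 1 fallen of 12, oocyte and eggshell genes 3 risen of 12, and genes of fed later larvae 2 risen of 8. The sperm list had 1 risen of 7. Of 11 early embryo genes none was called, although 2 had an unadjusted p under 0.05 in edgeR and 1 was called by DESeq2. Yolk genes had no call among 6 (0 at an unadjusted p under 0.05 in edgeR and 0 with DESeq2).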
